A study of Mus musculus with 5 samples.

Results

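The genes described here are 3 granins of the secretory granule (Chga, Chgb and Scg2), the granin Scg3, and 2 phosphatase-like proteins of the granule membrane (Ptprn and Ptprn2). They were taken as a list of names, and all 6 were found among the 6626 genes shared by the files of all libraries. Dissociated islets of C57BL/6 mice were profiled cell by cell with inDrop, in which droplets capture polyadenylated RNA and each molecule receives a unique molecular identifier (UMI). The mice were postpartum (libraries postpartum 1 and postpartum 2), pregnant (pregnant 1 and pregnant 2) or non-pregnant (1 library), and the study set pregnant and postpartum islets against non-pregnant ones. The labels give no age, day of pregnancy or day after birth, and nothing in them says whether the 2 libraries of a state came from separate animals, so a p-value here speaks only for the spread between these libraries.

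Granins are acidic, calcium-binding proteins that are packed with hormones into dense-core granules. In endocrine cells they aggregate in the trans-Golgi, take part in granule formation, and are cut into peptides that are released together with the hormone. Chga encodes chromogranin A, the precursor of pancreastatin and of the beta-granin peptide of beta cells, and Chgb encodes chromogranin B. Scg2 encodes secretogranin II, the precursor of secretoneurin, and Scg3 encodes secretogranin III, which binds chromogranin A and cholesterol at the granule membrane. Ptprn encodes IA-2 and Ptprn2 encodes phogrin (IA-2 beta), transmembrane proteins of the granule that are known as autoantigens in type 1 diabetes. Cells were classed by the largest of Ins1+Ins2, Gcg, Sst and Ppy and are called beta, alpha, delta and gamma cells here.

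The 150 bases before the annotated start of Chgb, Scg2 and Chga (RefSeq, GRCm38.p6) are shown. Chgb and Scg2 were both lower in alpha than in beta and delta cells, while Chga was not lower in alpha than in delta cells. In gamma cells Chgb and Scg2 parted, as given below. Capitals mark the cAMP response element TGACGTCA, or the partial site TGACG where the whole element was not found, searched on both strands. The Chgb stretch lies at chr2:132781492-132781641 (plus strand), that of Scg2 at chr1:79440027-79440176 (minus strand) and that of Chga at chr12:102554791-102554940 (plus strand).
Chgb: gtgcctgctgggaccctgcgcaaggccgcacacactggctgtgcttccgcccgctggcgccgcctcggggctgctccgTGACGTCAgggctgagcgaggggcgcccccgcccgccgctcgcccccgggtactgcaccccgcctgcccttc
Scg2: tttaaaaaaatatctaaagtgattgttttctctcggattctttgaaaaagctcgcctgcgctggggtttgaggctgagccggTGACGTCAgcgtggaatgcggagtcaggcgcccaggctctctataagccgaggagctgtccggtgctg
Chga: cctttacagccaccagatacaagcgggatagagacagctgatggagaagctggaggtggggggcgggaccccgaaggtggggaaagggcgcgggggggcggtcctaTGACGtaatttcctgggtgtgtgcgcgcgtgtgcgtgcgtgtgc
The whole element began at position -72 from the start of Chgb and at -68 from that of Scg2. In Chga a partial site began at -44, where the stretch reads TGACGTAA. Among the 32841 RefSeq promoter entries, each spanning 250 bases before to 50 after a start, 1.79% held the whole element and 20.8% the partial site, which the whole element contains on both strands. The windows of Scg3, Ptprn and Ptprn2 did not hold the whole element. A match of letters is a description and not a binding site, and whether these sites bear on the levels was not tested. The genes themselves span chr12:102554941-102565027 (Chga), chr2:132781642-132795079 (Chgb), chr1:79434366-79440026 (Scg2), chr9:75643366-75685959 (Scg3), chr1:75247035-75264497 (Ptprn) and chr12:116485695-117278167 (Ptprn2).

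The libraries differed widely in depth. Postpartum 1 and 2 held 557 and 1126 cells with a median of 236 and 572.5 UMIs per cell, pregnant 1 and 2 held 1993 and 164 cells with 539 and 89 UMIs, and the non-pregnant library held 847 cells with 2553 UMIs. Pregnant 2 stood apart: 1193 features were detected in it, against 6070 to 27309 in the other 4 libraries, and when a non-hormone gene was seen in one of its cells, 10 or more counts were recorded in 21.8% of cases, against 0.10% to 0.770%. Whether each of its counts is 1 molecule is not known, and the differences that rest on it are given with and without it. The non-pregnant file was also made on another scale and from a longer feature list than the other 4, so in any comparison with it the making of the file and the state cannot be told apart.

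Beta cells numbered 402, 896, 1773, 121 and 680 in postpartum 1, postpartum 2, pregnant 1, pregnant 2 and non-pregnant islets. Alpha cells numbered 123, 179, 141, 23 and 94 in the same libraries. Delta cells numbered 15, 25, 36 and 39 and gamma cells 13, 21, 35 and 34 in the libraries without pregnant 2, which had 7 and 3 and was not used for these classes. The 8 beta markers (Mafa and Ucn3 among them) summed to 4935 to 11948 counts per 1000000 (CPM) in beta cells and to 0 to 2284 CPM in alpha cells. Single markers did not all follow the sum. Mafa stood at 0.920 CPM in non-pregnant beta cells, and Nkx6-1, Slc2a2, Pdx1 and Slc30a8 stood at 0 in those of pregnant 2. Slc30a8 was higher in alpha than in beta cells of postpartum 1 (1181 against 890 CPM), postpartum 2 (926 against 541) and the non-pregnant library (375 against 330). In pregnant 1 it was lower (355 against 387 CPM). The alpha markers Irx1, Irx2, Ttr, Gc and Slc7a2 summed to 20905 to 67801 CPM in alpha cells and to 0 to 3222 CPM in beta cells. Most of the alpha sum was Ttr, at 19256 to 65202 CPM, and Irx1, Gc and Slc7a2 stood at 0 in alpha cells of pregnant 2. In delta cells of postpartum 1, which had 1505 non-hormone UMIs in all, both measured delta markers (Hhex and Rbp4) stood at 0. Cells whose leading hormone held under 80% of the hormone UMIs, called mixed here, made up 2.48% to 14.3% of beta, 0% to 29.1% of alpha, 35.9% to 69.4% of delta and 7.69% to 48.6% of gamma cells in the libraries used.

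Levels below are UMIs of a gene summed over the cells of a class, per 1000000 non-hormone UMIs of the shared genes in those cells. Differences are on the scale of log2(CPM + 100), which understates changes of low genes, with their standard error and a Benjamini-Hochberg adjusted p from limma over all genes tested. A gene is called at an adjusted p under 0.05.

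Between beta and alpha cells, Chgb and Scg2 were the members called by limma with all libraries. Both were higher in beta cells, the producers of insulin, in each of the 5 libraries. Of 6 members 2 were called, where 0.75% of all 2399 genes tested were called.

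Chgb stood at 6839 and 5810 CPM in beta cells of the postpartum libraries, at 4773 and 12677 CPM in those of the pregnant libraries and at 2450 CPM in non-pregnant beta cells. In alpha cells it stood at 1102 and 926 CPM postpartum, at 1229 and 0 CPM in pregnancy and at 1192 CPM in non-pregnant islets. The beta and alpha values did not overlap. The difference was 2.98 ± 0.54 (SE; limma, adjusted p = 0.00114), and 1.98 ± 0.32 without pregnant 2 (limma, adjusted p = 5.21e-05, with 1.01% of all genes called). In alpha cells of pregnant 2 the value rests on 0 of 1386 UMIs, which allows up to 2165 CPM (3 UMIs, counting error only).

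Scg2 stood at 12305 and 9496 CPM in beta cells of the postpartum libraries, at 8240 and 11511 CPM in those of the pregnant libraries and at 5719 CPM in non-pregnant beta cells. Its alpha levels were 1969 and 1873 CPM postpartum, 2623 and 0 CPM in pregnancy and 1755 CPM in non-pregnant islets. Here too the lowest beta value lay above the highest alpha value. The difference was 2.998 ± 0.46 (limma, adjusted p = 0.000125), and 2.03 ± 0.20 without pregnant 2 (limma, adjusted p = 7.55e-11). Without postpartum 1 neither gene passed, at adjusted p = 0.137 for Chgb and 0.0878 for Scg2 with differences of 3.09 and 3.10 (limma).

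The mixed alpha cells, in which glucagon held under 80% of the hormone UMIs, had more Chgb than the others, at 2451 against 904 CPM in postpartum 1, 2426 against 656 CPM in postpartum 2, 2235 against 761 CPM in pregnant 1 and 1525 against 1092 CPM in non-pregnant islets. With mixed cells left out of both classes the beta and alpha difference was 3.29 ± 0.56 for Chgb (limma, adjusted p = 0.000169) and 3.20 ± 0.44 for Scg2.

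Insulin transcripts in alpha cells were set beside these levels as a rough mark of RNA shared between droplets or held in mixed cells. The class rule keeps insulin below Gcg in each alpha cell and sets no such limit on granins. The comparison therefore cannot tell shared RNA from transcripts of the alpha cells themselves. Without pregnant 2, Ins1+Ins2 in alpha cells stood at 3.56% to 8.13% of their beta-cell level. Chgb in alpha cells stood at 15.9% to 48.6% and Scg2 at 16.0% to 31.8% of its beta-cell level in the same 4 libraries, above the insulin share in each. In vascular and myeloid cells with under 20% hormone UMIs, where granins are not expected, Scg2 stood at 194 CPM (4 UMIs in 15 cells) in the non-pregnant library, 488 CPM (4 UMIs in 18 cells) in pregnant 1 and 163 CPM (1 UMI in 25 cells) in postpartum 2. Chgb stood at 48.5 CPM, 0 CPM and 163 CPM in these cells, and Chga at 727 CPM, 731 CPM and 163 CPM. Their median depth was 1697, 384 and 256 UMIs per cell. In postpartum 1 there were 4 such cells, with 2 Scg2 UMIs (3610 CPM, where 0 UMIs would allow 5415 CPM) and none of Chga or Chgb. Without the limit on hormone UMIs, which drops the cells with most islet RNA, hormones held 11.3% to 40.1% of the UMIs of these cells. Scg2 then stood at 2708 and 805 CPM in postpartum 1 and 2, 1934 CPM in pregnant 1 and 4214 CPM in the non-pregnant library. In the non-pregnant library these cells lay above the alpha level for Scg2, for Chgb (1981 against 1192 CPM) and for Chga (5637 against 5249 CPM). In postpartum 1 Scg2 also lay above it, but from 3 UMIs in 7 cells, where 0 UMIs would allow 2708 CPM. Chgb and Chga lay below their alpha level in postpartum 1, postpartum 2 and pregnant 1.

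For Chga this contrast was smaller, and limma did not call it with all libraries or without pregnant 2. Its beta levels were 16677 and 15986 CPM postpartum, 7988 and 4954 CPM in pregnancy and 7750 CPM in non-pregnant islets. Its alpha levels were 8977 and 11137 CPM postpartum, 6119 and 13708 CPM in pregnancy and 5249 CPM in non-pregnant islets. Beta cells had the higher value in 4 of 5 libraries, and pregnant 2 had the lower. The difference was 0.18 with a 95% interval of -0.40 to 0.76 (limma, adjusted p = 0.997), and 0.58 ± 0.17 without pregnant 2 (limma, adjusted p = 0.083). Of 17 alternative settings 1 called Chga, DESeq2 with all libraries (adjusted p = 0.021), and beta cells had the higher level in all 17.

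Delta cells, which make somatostatin, had more Chgb and Scg2 than alpha cells and less Chga than beta cells. Chgb stood at 3987 and 5065 CPM in delta cells of the postpartum libraries, at 4283 CPM in pregnant 1 and at 5054 CPM in non-pregnant islets. Scg2 stood at 7973 and 7730 CPM in postpartum delta cells, at 8230 CPM in pregnant 1 and at 6341 CPM in non-pregnant ones. Against these, alpha cells were lower by 2.46 ± 0.59 for Chgb (limma, adjusted p = 0.0327) and by 2.32 ± 0.50 for Scg2 (limma, adjusted p = 0.0199), and 0.875% of all genes were called in that comparison. Without pregnant 2 the differences were -1.95 and -1.84 (limma, adjusted p = 9.95e-05 and 2.74e-09, with 1.29% of all genes called). Neither gene passed without postpartum 1 (adjusted p = 0.31 for both, limma) or without postpartum 2 or the non-pregnant library, and Chgb did not pass without pregnant 1 (adjusted p = 0.142, limma). With mixed cells left out, Chgb did not pass (-2.33, adjusted p = 0.115, limma) and Scg2 did (-2.81, adjusted p = 0.00313, limma). Chga, not called with all libraries, was higher in alpha than in delta cells both with mixed cells left out (1.81, adjusted p = 0.0232, limma) and without pregnant 2 (0.85, adjusted p = 0.00128, limma). The difference between beta and delta cells was 0.53 for Chgb (95% interval -0.68 to 1.73) and 0.67 for Scg2 (95% interval -0.36 to 1.71), and neither was called. Without pregnant 2 these were 0.024 (95% interval -0.62 to 0.67) and 0.19 (95% interval -0.20 to 0.59).

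Chga in delta cells stood at 7309 and 5065 CPM postpartum, 2687 CPM in pregnant 1 and 2885 CPM in non-pregnant islets, below the beta level of the same library in each of the 4. The difference between beta and delta cells was 1.23 ± 0.31 (limma, adjusted p = 0.0429), 1 of 6 members called beside 1.04% of all genes. Without pregnant 2 it was 1.44 ± 0.17 (limma, adjusted p = 6.41e-08, with 1.37% of all genes called), but it did not pass when any one of the other 4 libraries was left out. Scaled to all UMIs, hormones included, it was 0.55 (limma, adjusted p = 0.5), and 0.74 on that scale without pregnant 2 (limma, adjusted p = 0.0837). In the delta cells with at least 80% somatostatin among hormone UMIs Chga stood at 5291 and 4930 CPM postpartum (6 and 10 cells), 637 CPM in pregnant 1 (11 cells) and 2686 CPM in non-pregnant islets (25 cells), and with mixed cells left out of both classes the difference was 2.04 ± 0.41 (limma, adjusted p = 0.00512).

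In gamma cells, which make pancreatic polypeptide, Chga stood at 7484 and 6806 CPM postpartum, 2862 CPM in pregnant 1 and 3453 CPM in non-pregnant islets. Chgb stood at 1871 and 1970 CPM in postpartum gamma cells, 1329 CPM in pregnant 1 and 2575 CPM in non-pregnant ones. Scg2 stood at 7484 and 4836 CPM in postpartum gamma cells, 9405 CPM in pregnant 1 and 4659 CPM in non-pregnant ones. With all libraries limma called no member between beta and gamma cells, where 0.959% of all genes were called, and at an unadjusted p under 0.05 there were 324 genes. Without pregnant 2, Chga (1.24 ± 0.17, adjusted p = 1.29e-06), Chgb (1.26 ± 0.32, adjusted p = 0.0259) and Scg3 (2.05 ± 0.57, adjusted p = 0.048) were higher in beta than in gamma cells by limma, beside 1.61% of all genes. edgeR with all libraries called the same 3 members in that comparison, beside 2.71% of all genes. With mixed cells left out limma called Chga there (1.32, adjusted p = 0.0497), and Scg2 between alpha and gamma cells (-2.32, adjusted p = 0.0124). Between alpha and gamma cells 0.125% of all genes and no member were called by limma with all libraries, and Scg2 was lower in alpha cells by 1.59 ± 0.20 without pregnant 2 (limma, adjusted p = 2.06e-07, 0.282% of all genes called). Between delta and gamma cells 0.542% of all genes and no member were called by limma with all libraries, and without pregnant 2 Chgb was higher in delta cells by 1.23 ± 0.32 (limma, adjusted p = 0.0476, 0.807% of all genes called).

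**Figure D1:**
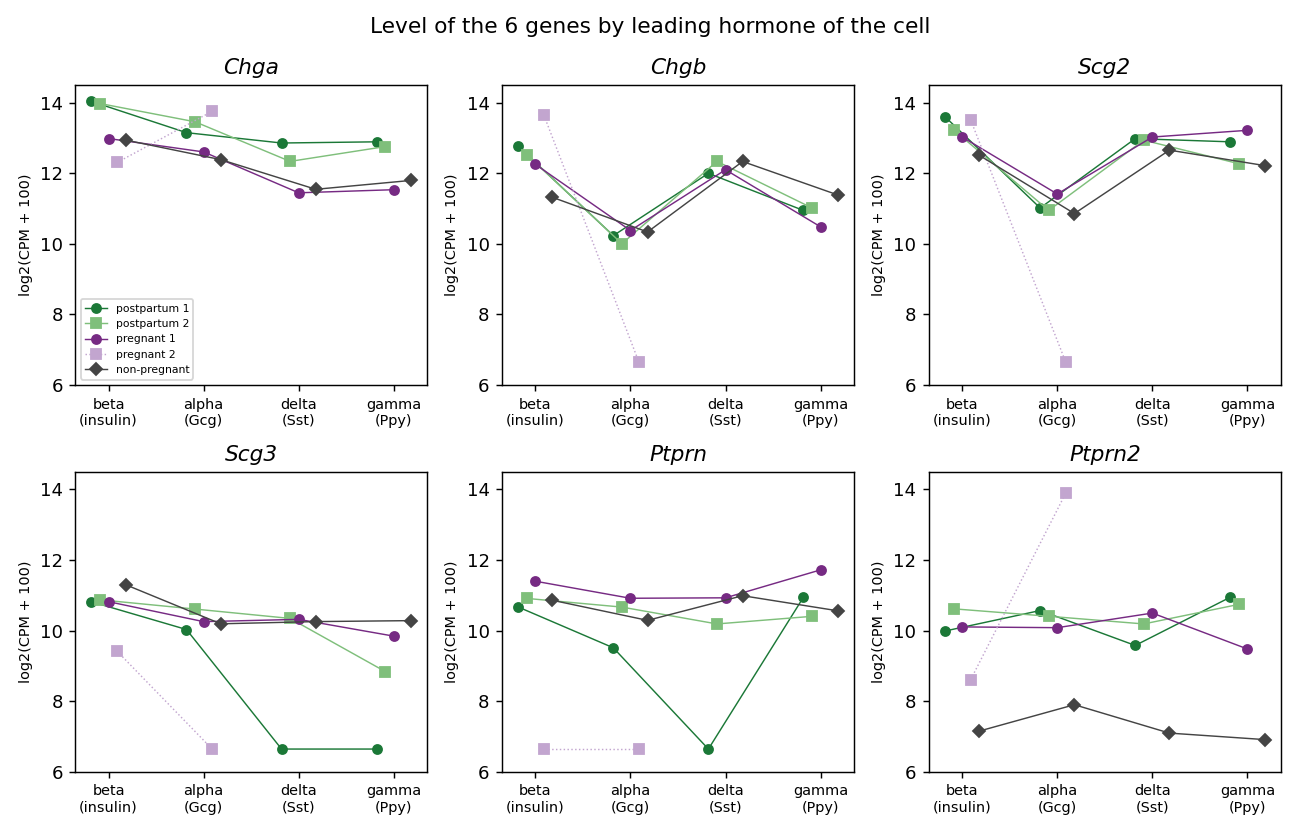
The level of each gene as log2(CPM + 100) is plotted for beta, alpha, delta and gamma cells (horizontal axis), with 1 point per library and the points of a library joined. Chgb and Scg2 dip in alpha cells in each library, Ptprn2 is lowest in the non-pregnant library in all 4 classes, and points of pregnant 2 with 0 UMIs sit at log2(100).

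Scg3, Ptprn and Ptprn2 were not called by limma between any pair of classes with all libraries. DESeq2 called Scg3 higher in beta than in alpha (0.94, adjusted p = 0.0282), delta (1.20, adjusted p = 0.0377) and gamma cells (1.49, adjusted p = 0.00838). Scg3 stood at 1703 and 1773 CPM in postpartum beta cells, 1705 and 583 CPM in pregnant ones and 2419 CPM in non-pregnant ones, against 945 and 1462, 1120 and 0, and 1069 CPM in alpha cells of the same libraries. The beta value was the higher in each library, and the difference of 1.1 ± 0.60 was not called (limma, adjusted p = 0.634), nor was that of 0.68 ± 0.57 without pregnant 2. Ptprn stood at 1525 and 1825 CPM in postpartum beta cells, 2598 and 0 CPM in pregnant ones and 1755 CPM in non-pregnant ones. In alpha cells Ptprn stood at 630 and 1523 CPM postpartum, 1830 and 0 CPM in pregnancy and 1151 CPM in non-pregnant islets, a difference of 0.49 (95% interval -0.68 to 1.66), and of 0.61 without pregnant 2 (95% interval -0.42 to 1.64). Both intervals leave room for Ptprn levels in beta cells both below and well above those in alpha cells.

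The states were then compared within beta cells, to ask how granin transcripts differed in pregnancy and after it. Chga, Chgb and Scg2 were higher in postpartum than in non-pregnant beta cells, and Chga was also higher in postpartum than in pregnant ones. In this comparison of postpartum with non-pregnant beta cells 3 of 6 members were called, beside 0.318% of the 2198 genes tested. The median difference of the 6 members was 0.99, against -0.01 for all genes tested. Between postpartum and pregnant beta cells the median of all genes was itself 0.55 with all libraries and -0.03 without pregnant 2, and between pregnant and non-pregnant beta cells it was -0.57 and 0.02.

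Markers of other cells also differed between the beta cells of these libraries. The 10 measured acinar markers summed to 2542 and 1923 CPM in postpartum beta cells, 7.62 and 6265 CPM in pregnant ones and 661 CPM in non-pregnant ones, with 7 of them at 0 in pregnant 1 and 6 in pregnant 2. The 6 macrophage markers summed to 788 and 1325 CPM postpartum, 627 and 0 CPM in pregnancy and 495 CPM in non-pregnant cells. Rgs5, a pericyte gene, stood at 330 and 335 CPM postpartum, 22.9 and 0 CPM in pregnancy and 41.4 CPM in non-pregnant cells. Endothelial markers summed to 636 and 763 CPM postpartum, 535 and 0 CPM in pregnancy and 873 CPM in non-pregnant cells. With vascular and myeloid cells left out, the differences between postpartum and non-pregnant beta cells were 1.07 for Chga, 1.34 for Chgb and 0.90 for Scg2, all called by limma. The part of the acinar and pericyte transcripts in these results was not tested.

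**Figure D2:**
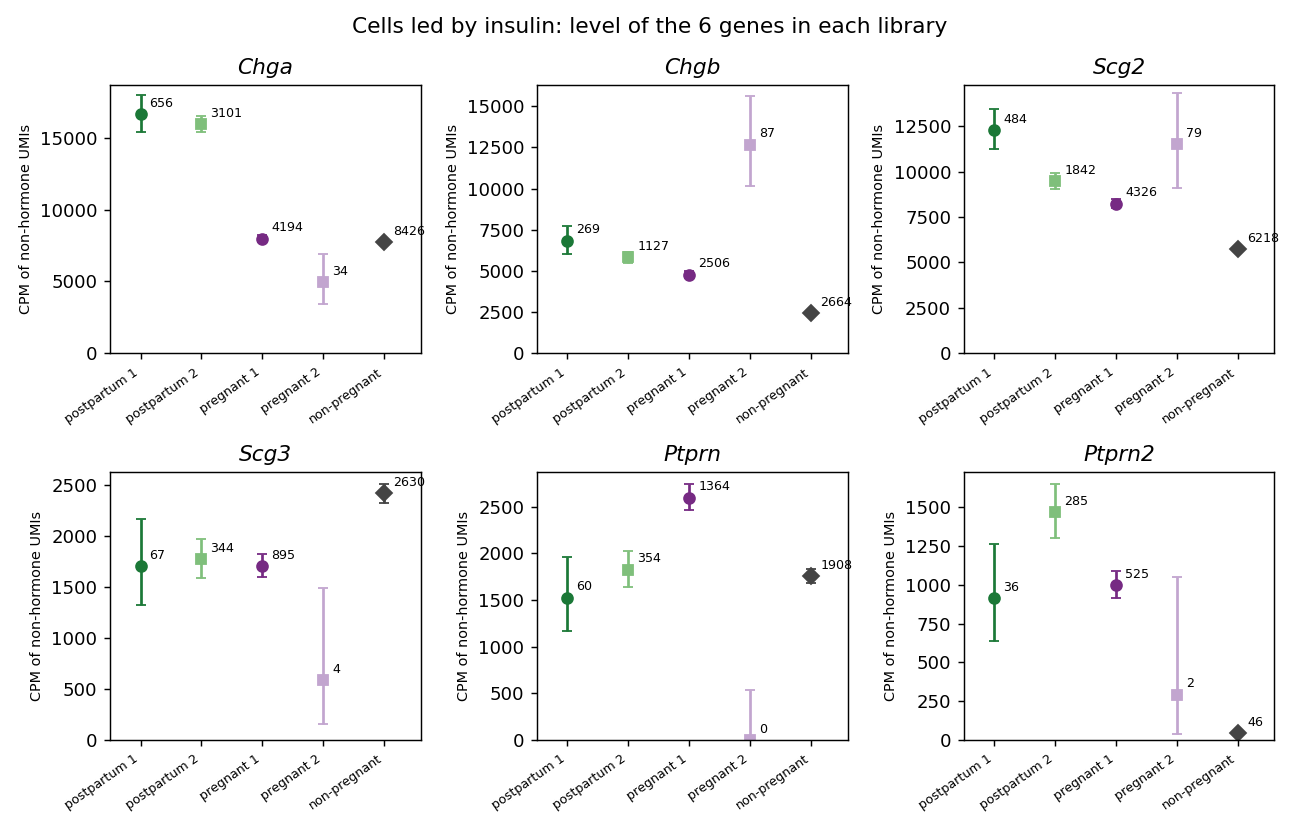
Level of each gene in beta cells (vertical axis, CPM of non-hormone UMIs) in each library (horizontal axis), with exact Poisson 95% intervals that cover counting error only and the number of UMIs printed beside each point. Chga separates both postpartum libraries from the other 3, and Ptprn2 has 46 UMIs in the deepest library, the non-pregnant one.

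Chga in both postpartum libraries (16677 and 15986 CPM) lay above both pregnant libraries (7988 and 4954 CPM, the latter from 34 UMIs in 11 cells) and above the non-pregnant one (7750 CPM). It was higher in postpartum than in non-pregnant beta cells by 1.07 ± 0.20 (limma, adjusted p = 5.56e-05), and by 1.07 ± 0.21 without pregnant 2 (limma, adjusted p = 4.08e-05). It was higher in postpartum than in pregnant beta cells by 1.36 ± 0.16 (limma, adjusted p = 1.02e-13), 1 of 6 members called beside 0.091% of all genes. Without pregnant 2 that difference was 1.02 ± 0.21 (limma, adjusted p = 0.000261, with 2.44% of all genes called). Pregnant and non-pregnant beta cells differed in Chga by -0.30 (95% interval -0.68 to 0.09), and by 0.04 without pregnant 2.

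Chgb in both postpartum libraries (6839 and 5810 CPM) and in both pregnant libraries (4773 and 12677 CPM) lay above the non-pregnant library (2450 CPM). The difference was 1.33 ± 0.34 between postpartum and non-pregnant beta cells (limma, adjusted p = 0.0249; 0.000349 without pregnant 2). Between pregnant and non-pregnant beta cells it was 1.63 ± 0.34 (limma, adjusted p = 0.00143), 1 of 6 members called beside 0.136% of all genes. Without pregnant 2, whose value rests on 87 UMIs in 10 of 121 cells, that difference was 0.93 ± 0.34 and was not called (limma, adjusted p = 0.234). Between postpartum and pregnant beta cells it was -0.30 with all libraries and 0.39 without pregnant 2, neither called, so the order of these states depends on that library.

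Scg2 in both postpartum libraries (12305 and 9496 CPM) and in both pregnant libraries (8240 and 11511 CPM, the latter from 79 UMIs in 13 cells) lay above the non-pregnant library (5719 CPM). Scg2 overlapped between postpartum and pregnant libraries. It was higher in postpartum than in non-pregnant beta cells by 0.91 ± 0.21 (limma, adjusted p = 0.00619; 0.00393 without pregnant 2). The difference between pregnant and non-pregnant beta cells, 0.76 ± 0.21, was not called (limma, adjusted p = 0.155), nor was the 0.52 ± 0.27 without pregnant 2. Between postpartum and pregnant ones it was 0.15 (95% interval -0.18 to 0.48), and 0.39 without pregnant 2 (95% interval -0.08 to 0.85).

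**Figure D3:**
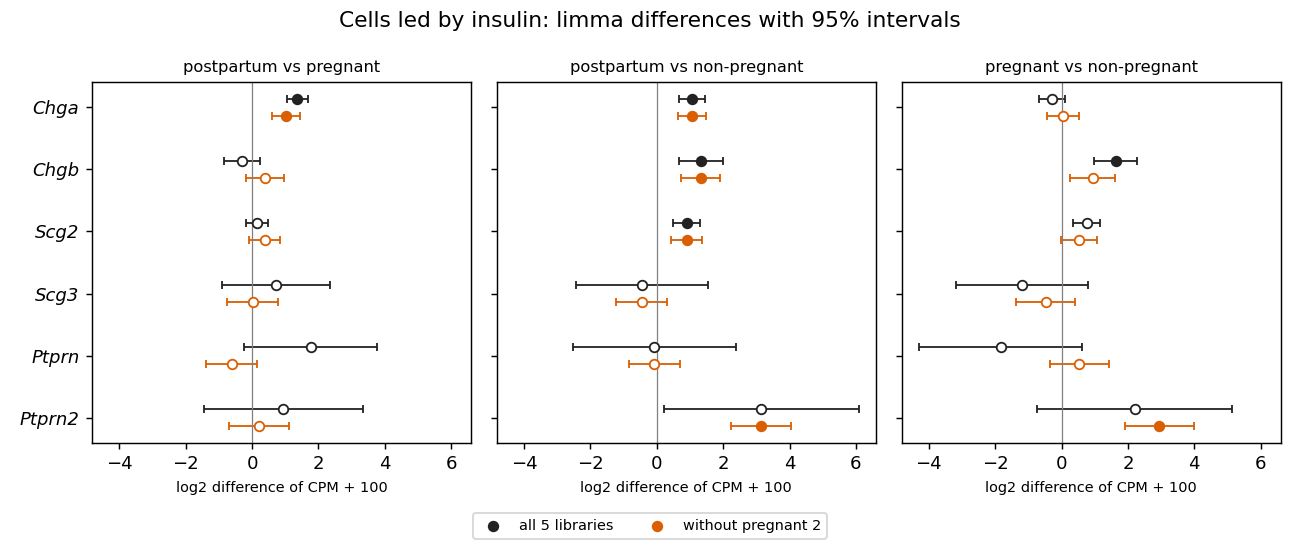
Differences between states in beta cells (horizontal axis, log2 of CPM + 100) with 95% limma intervals for the 6 genes, with all libraries (black) and without pregnant 2 (orange); filled points were called. Chga, Chgb and Scg2 are called in postpartum against non-pregnant cells either way, while Chgb in pregnant against non-pregnant cells is called with all libraries and not without pregnant 2.

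The error in these fits came from the trend over all genes and not from the gene itself. For Chga the standard deviation between libraries of a state was 0.34 on the log2 scale, against 0.16 used by the fit, for Chgb it was 0.70 against 0.27 and for Scg2 0.30 against 0.17. An exact permutation test of 2 libraries against 2 cannot go below p = 0.333. edgeR on the recovered UMIs of all libraries called none of the 3 differences between postpartum and non-pregnant beta cells, and without pregnant 2 it called Chga (1.05, adjusted p = 0.00143), Chgb (1.33, adjusted p = 0.00184) and Scg2 (0.89, adjusted p = 0.0192), with Ptprn2 as the other member and 11.9% of all genes. Without postpartum 1, Chga remained called (1.03, adjusted p = 0.0262, limma), while Chgb (1.21) and Scg2 (0.72) were not. Without postpartum 2, Chgb was not called either (1.44, adjusted p = 0.527, limma). A pseudocount of 10 CPM, a minimum of 500 UMIs per cell and DESeq2 each ended all 3 calls, at differences of 0.84 to 1.36. The minimum of 500 UMIs removed all 164 cells of pregnant 2 and 539 of the 557 cells of postpartum 1. It is therefore also a change of libraries and not of depth alone. Chga in postpartum against pregnant beta cells remained called by limma when any one library was left out. It was not called in cells with at least 500 UMIs (0.83, adjusted p = 0.997, limma), by DESeq2 (1.68, adjusted p = 0.789) or by edgeR with all libraries (1.80, adjusted p = 1), while edgeR without pregnant 2 called it (1.04, adjusted p = 0.00352).

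These differences depended on the scale of the measurement. Insulin transcripts made up 51% and 60.7% of the UMIs of postpartum beta cells, 36.2% and 33.7% of those of pregnant ones and 29.1% of those of non-pregnant ones. When levels were scaled to all UMIs, hormones included, the differences between postpartum and non-pregnant beta cells were 0.36 for Chga, 0.62 for Chgb and 0.21 for Scg2, and none was called (limma, adjusted p = 0.998 each). On that scale the median of all genes was -0.32, against -0.01 on the non-hormone scale. Chga in postpartum against pregnant beta cells was 0.72 on the scale of all UMIs (limma, adjusted p = 0.00207), and 0.48 without pregnant 2 (limma, adjusted p = 0.162).

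The granins were also set against insulin itself, the cargo of the granule. There were 13.05 and 9.09 Chga UMIs per 1000 insulin UMIs in postpartum beta cells, 12.0 and 9.13 in pregnant ones and 16.2 in non-pregnant ones. For Chgb the numbers were 5.35 and 3.30 postpartum, 7.14 and 23.4 in pregnancy and 5.11 in non-pregnant cells. For Scg2 they were 9.63 and 5.40 postpartum, 12.3 and 21.2 in pregnancy and 11.9 in non-pregnant cells. Both postpartum libraries lay below the non-pregnant one for Chga and Scg2, with no test made of these ratios.

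**Figure D4:**
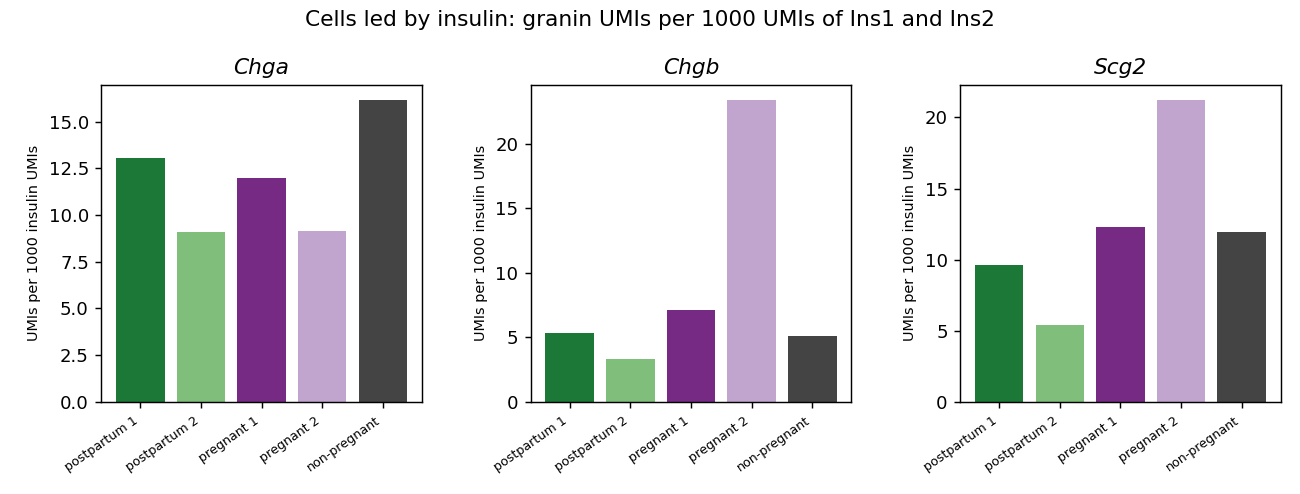
Bars give the UMIs of Chga, Chgb and Scg2 per 1000 UMIs of Ins1 and Ins2 in beta cells (vertical axis) of each library (horizontal axis). The non-pregnant bar is the tallest for Chga, and the pregnant 2 bars, from 87 and 79 UMIs, are the tallest for Chgb and Scg2.

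Scg3, the granin that binds chromogranin A, was not called by limma in any comparison of states, with all libraries or without pregnant 2. Without pregnant 1, which leaves pregnant 2 as the lone pregnant library, it was called lower in pregnant than in non-pregnant beta cells (-1.88, adjusted p = 0.000134, limma). Its levels in postpartum beta cells (1703 and 1773 CPM) and in pregnant 1 (1705 CPM) were within a narrow range, below the 2419 CPM of the non-pregnant library. The difference between postpartum and non-pregnant beta cells was -0.45 ± 1.02, and -0.45 ± 0.39 without pregnant 2, neither called by limma (adjusted p = 1 and 0.738). In pregnant 2 Scg3 rested on 4 UMIs, all in 1 cell.

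Ptprn, the gene of IA-2, with 1525 and 1825 CPM in postpartum beta cells, 2598 CPM in pregnant 1 and 1755 CPM in the non-pregnant library, differed between postpartum and non-pregnant beta cells by -0.07 (95% interval -0.83 to 0.70 without pregnant 2). In pregnant 2 it had 0 of 6863 UMIs, which allows up to 437 CPM. Ptprn2 stood at 915 and 1469 CPM in postpartum beta cells, at 1000 and 291 CPM in pregnant ones and at 42.3 CPM in the non-pregnant library (46 UMIs, Poisson 95% interval 31.0 to 56.4). The non-pregnant level was the lowest of the 5.

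With all libraries the Ptprn2 differences of 3.15 ± 1.5 between postpartum and non-pregnant and 2.21 ± 1.5 between pregnant and non-pregnant beta cells were not called (limma, adjusted p = 1 and 0.896). Without pregnant 2 they were 3.15 ± 0.46 (limma, adjusted p = 2.54e-09) and 2.95 ± 0.53 (limma, adjusted p = 7.48e-06), in comparisons that called 6.46% and 1.95% of all genes. The same contrast appeared in each of the other classes, at 1417 and 1256 CPM in postpartum alpha cells and 983 CPM in those of pregnant 1, against 139 CPM in non-pregnant ones. In delta cells Ptprn2 stood at 664, 1066 and 1344 CPM in postpartum 1, postpartum 2 and pregnant 1, against 36.8 CPM in the non-pregnant library. In gamma cells it stood at 1871, 1612 and 613 CPM, against 20.4 CPM. Mafa, a regulator of insulin transcription, showed a like gap, with 1830 and 1273 CPM in postpartum, 1189 and 1749 CPM in pregnant and 0.920 CPM in non-pregnant beta cells. Cpe, carboxypeptidase E of the granule, ran the other way, with 1017 and 557 CPM postpartum, 739 and 583 CPM in pregnancy and 3254 CPM in non-pregnant beta cells. Beside such gaps in both directions, the low Ptprn2 of the non-pregnant library cannot be told apart from the way its file was made.

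In alpha cells no member was called in any comparison of states by limma with all libraries or without pregnant 2, and with all libraries 0.214% of the 1868 genes tested were called between postpartum and non-pregnant, 0.107% between pregnant and non-pregnant and 0.0535% when postpartum cells were set against pregnant ones. At an unadjusted p under 0.05 there were 20, 15 and 31 genes. Chga was higher in both postpartum (8977 and 11137 CPM) and both pregnant libraries (6119 and 13708 CPM) than in the non-pregnant one (5249 CPM). The difference between postpartum and non-pregnant alpha cells was 0.92 ± 0.61, and 0.92 ± 0.23 without pregnant 2 (limma, adjusted p = 0.999 and 0.242). For Chgb it was -0.22 and for Scg2 0.12, with 95% intervals of -5.37 to 4.93 and -4.95 to 5.20 with all libraries and of -1.28 to 0.84 and -0.75 to 0.99 without pregnant 2. edgeR with all libraries called no member, and without pregnant 2 it called Ptprn2 between postpartum and non-pregnant alpha cells (3.19, adjusted p = 0.00141), beside 7.47% of all genes. Ptprn2 in alpha cells of pregnant 2 stood at 15152 CPM from 21 UMIs, against at most 1417 CPM in the alpha cells of the other libraries.

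Whether a state difference itself differed between alpha and beta cells was tested on the within-library difference between the classes. No member and 0% of the 2135 genes tested were called by limma in any of the 3 comparisons, and 14, 1 and 33 genes had an unadjusted p under 0.05 in postpartum against non-pregnant, pregnant against non-pregnant and postpartum against pregnant. The difference between alpha and beta cells in the postpartum against non-pregnant change was -0.15 for Chga (95% interval -2.63 to 2.34) and -1.55 for Chgb (95% interval -11.6 to 8.47). Without pregnant 2 the intervals were -1.64 to 1.35 for Chga and -3.03 to -0.064 for Chgb, and neither was called (limma, adjusted p = 0.998). The called Chga difference in beta cells is thus not shown to be particular to them.

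State differences in delta and gamma cells, with 1 pregnant library used, were not tested. In delta cells Chga was higher in both postpartum libraries (7309 and 5065 CPM, from 11 and 38 UMIs) than in pregnant 1 (2687 CPM) and the non-pregnant library (2885 CPM). In gamma cells it stood at 7484 and 6806 CPM postpartum, 2862 CPM in pregnant 1 and 3453 CPM in the non-pregnant library. With mixed cells left out, Chga in gamma cells stood at 6958 and 3464 CPM postpartum, 3580 CPM in pregnant 1 and 2764 CPM in the non-pregnant library, and the postpartum and pregnant values overlapped. Chgb in delta cells lay between 3987 and 5065 CPM in the 4 libraries. With mixed cells left out it stood at 5291 and 1761 CPM postpartum, 2868 CPM in pregnant 1 and 5764 CPM in the non-pregnant library, a wider range.

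Other genes of the granule were read from 5 lists with 52 genes, of which 44 were measured (granin-related, prohormone processing, granule membrane and zinc, granule biogenesis, and exocytosis). In postpartum against non-pregnant beta cells 1 of the 33 tested was called with all libraries, beside 0.318% of all genes. It was Pcsk2, the prohormone convertase that yields glucagon in alpha cells and helps to mature insulin. It stood at 11237 and 13769 CPM in postpartum beta cells, 8969 and 7285 CPM in pregnant ones and 6042 CPM in non-pregnant ones, and was higher postpartum than in non-pregnant cells by 1.03 ± 0.21 (limma, adjusted p = 0.000546). Without pregnant 2, 4 of the 33 were called, beside 6.46% of all genes: Pcsk2 (1.03) and Pcsk1 (1.38, adjusted p = 0.0217) were higher, and Cpe (-1.97, adjusted p = 0.000275) and Pcsk1n lower, by limma. The list medians in that comparison ran from -0.47 (granin-related) to 0.16 (prohormone processing), against -0.01 for all genes tested. Of the 33 genes 13 stood higher and 20 lower. In the other 2 comparisons of states in beta cells none was called with all libraries. Without pregnant 2, Cpe was lower in pregnant than in non-pregnant beta cells (-1.999 ± 0.50, adjusted p = 0.00431, limma).

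The granin-related list holds Scg5, Vgf, Pcsk1n and Resp18, and none was called by limma in any comparison of states or classes with all libraries. Pcsk1n, which encodes an inhibitor of the convertase Pcsk1, stood at 1119 and 871 CPM in postpartum, 2569 and 3060 CPM in pregnant and 2487 CPM in non-pregnant beta cells. Between postpartum and non-pregnant beta cells it fell by 1.25 ± 0.41 without pregnant 2 (limma, adjusted p = 0.0354). Resp18, an endocrine secretory protein, stood at 1017 and 2150 CPM in postpartum, 1924 and 146 CPM in pregnant and 1329 CPM in non-pregnant beta cells.

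Between classes the convertases behaved in opposite ways. Pcsk1, which cuts proinsulin, was higher in beta than in alpha cells by 3.63 ± 0.55 (limma, adjusted p = 9.87e-05), while Pcsk2 was lower in beta cells, with a difference of -1.03 ± 0.18 (limma, adjusted p = 0.000847). Without pregnant 2 these were 3.24 and -0.88, and both were called. With all libraries they were the called genes of the 35 tested in that comparison, of which 23 stood higher and 12 lower in beta cells. Bace2, a protease of beta cells, was not called there (1.76, adjusted p = 0.136, limma) but was without pregnant 2 (2.47, adjusted p = 0.00166, limma). Between beta and delta cells 3 of the 35 were called, all higher in beta cells: Pcsk1 (2.95, adjusted p = 0.00661), Slc30a8, the zinc transporter of insulin granules (2.29, adjusted p = 0.0104), and Bace2 (2.58, adjusted p = 0.011), by limma. Without pregnant 2 they were 2.76, 2.26 and 2.94, all called. Slc30a8 was also higher in alpha than in delta cells (2.51 with all libraries, adjusted p = 0.00641, and 2.54 without pregnant 2, by limma). The lists on granule biogenesis and exocytosis had medians of 1.04 and 0.39 between beta and alpha cells, against 0.16 for all genes. Without pregnant 2 these were 0.19 and 0.063, against 0.085. The granin-related list went the other way, with a median of -0.30, and -1.105 without pregnant 2, where all 3 tested genes were lower in beta cells. Prohormone processing had medians of -0.32 and -0.139 with and without pregnant 2, and granule membrane and zinc 0.22 and 0.27.

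Across 15 pairs of library and class with at least 5000 non-hormone UMIs, from 5 libraries, the genes most like each member were ranked by Pearson r after centring each library. The 1 pair of pregnant 2 is 0 for every gene once centred, so the values rest on 14 pairs from 4 libraries. Of 2440 genes, Chgb was most like Hadh (r = 0.947), Cd164 (0.920) and Fkbp9 (0.907), and Scg2 most like Cd164 (0.882), Mlec (0.878) and Hadh (0.877). Chgb and Scg2 correlated with each other at r = 0.864, while Chga correlated with Chgb at 0.06 and with Scg2 at -0.03. Chga was most like Shc1 (0.967), Ociad2 (0.935) and Golga5 (0.906), Scg3 most like Gnai2 (0.933), C2cd4b (0.909) and Prkcb (0.898), and Ptprn most like Atp6v0e (0.941), Rbx1 (0.915) and Gjd2 (0.866). Ptprn2 had the weakest best matches, Rbm26 (0.764), Atp6v0e2 (0.751) and Nfe2l1 (0.727). The points share libraries, depth and cell classes, so these values describe likeness in these data only.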

How the data were processed

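The authors deposited 1 table per library. In the non-pregnant one each cell holds a linear signal scaled by the authors to 3023.99 per cell over 40930 features, and in the other 4 the deposited values are log2 of counts per 1000000 plus 1 over 6695 features, as the values show. Per the submitters' processing notes Bowtie 1.1.1 and Partek 8.0 were used, on builds GRCm38 and mm10. How cells and features were filtered is not given in the sources used. Whole UMIs per cell were recovered from the steps between values (100% within 0.1 of a whole number) and are the depth given in the text. Genes were matched by symbol (6543) or unique synonym (83), giving 6626, with Rn45s and Gm42418 left out.

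The main test was limma 3.58.1 (R 4.3.3, trended prior) on log2(CPM + 100) for genes averaging at least 100 CPM, 1 value per library and class of at least 10 cells, two-sided, with 3 groups in beta and in alpha cells (2 residual degrees of freedom) and the library as a block between classes. The lone non-pregnant library was assumed to vary like the other groups. Hormone transcripts were left out of the genes and of the scale. edgeR 4.0.16 and DESeq2 1.42.0 ran on the recovered UMIs as alternatives, and the fit was tested on simulated data. The simulation drew the beta cells of all libraries from a common profile. It did not copy the high counts per detection of pregnant 2 or the other making of the non-pregnant file, so it cannot speak for these. No doublet caller was run. Cells are numbered without barcodes, so barcodes shared between libraries could not be counted. The members and gene lists were chosen with earlier results of these data known. All 6 members are named; of a list, up to 3 called genes with the smallest p, or the 2 with the highest level; by likeness, the top 3. Pcsk1n, Mafa, Cpe and Rgs5 were named outside this rule after their values were seen. Some listed marker genes are not reported here and were left out of the marker sums.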

Additional observations from a re-analysis of the deposited data

Results flagged for a closer look

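Cells with no UMI of the hormones that set the class, or with a tie between them, entered no comparison. In the 8 such cells of pregnant 1, with 2675 non-hormone UMIs, Chga stood at 2617 CPM, Chgb at 3364 CPM and Scg2 at 5234 CPM, above the 1122 CPM that a count of 0 would allow there. These values rest on 7, 9 and 14 UMIs. In the unclassed cells of postpartum 1 (4 cells), postpartum 2 (5 cells) and pregnant 2 (10 cells) Chga had 0, 1 and 0 UMIs, Chgb had 0 in each and Scg2 had 1, 0 and 2.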

How the results depend on the processing

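Most results rest on few and unequal libraries. The main counts of called members were 3 (postpartum against non-pregnant), 1 (pregnant against non-pregnant) and 1 (postpartum against pregnant) in beta cells, 2 (beta against alpha), 1 (beta against delta), 2 (alpha against delta) and 0 elsewhere. The alternatives chosen after seeing the data were edgeR without pregnant 2 and scaling to all UMIs without pregnant 2. Over all alternatives and comparisons, 184 counts stayed within 1.5 times the main count, 26 were higher and 32 lower, and the cause was not tested. The 184 include counts that stayed at 0 where the main count was 0, so the tally does not measure how stable the calls were. Depth limits low members, above all in pregnant 2. The setting of at least 500 UMIs per cell leaves no cell of pregnant 2.

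In postpartum against non-pregnant beta cells the count was 0 with a pseudocount of 10, with scaling to all UMIs and with edgeR. It was 1 in cells with at least 500 UMIs, with DESeq2 and when scaled to all UMIs without pregnant 2. Leaving out 1 library gave 1 to 4. In pregnant against non-pregnant beta cells it was 0 with a pseudocount of 10, in cells with at least 500 UMIs, with edgeR and with DESeq2, 2 with no filter on low values, and 1 to 6 with 1 library left out. In postpartum against pregnant beta cells it was 0 in cells with at least 500 UMIs, with edgeR, with DESeq2 and when scaled to all UMIs without pregnant 2, and 1 to 5 with 1 library left out. The upper counts there came without pregnant 1, which leaves pregnant 2 alone and called up to 1740 of all genes.

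In alpha cells the number of called members in pregnant against non-pregnant and in postpartum against pregnant varied with the library left out. The number of all genes called in these comparisons also varied widely over the settings. Leaving out a pregnant or postpartum library leaves 1 library in that state, so these counts are not read as results about the members. In postpartum against non-pregnant, edgeR without pregnant 2 called Ptprn2, as given above. For the difference between alpha and beta cells in a state change, the counts in pregnant against non-pregnant and in postpartum against pregnant varied in the same way, for members and for all genes.

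Between beta and alpha cells DESeq2 gave 4, and leaving out 1 library 0 to 2. Between beta and delta cells a pseudocount of 10, scaling to all UMIs with or without pregnant 2 and no library block gave 0, DESeq2 and edgeR without pregnant 2 gave 2, and leaving out 1 library 0 to 1. Between beta and gamma cells a leading hormone of at least 80% and scaling to all UMIs without pregnant 2 gave 1, cells with at least 500 UMIs, edgeR and DESeq2 gave 3, edgeR without pregnant 2 gave 4, and leaving out 1 library 0 to 3. Between alpha and delta cells a pseudocount of 10, no filter and edgeR gave 0, no library block 1, and leaving out 1 library 0 to 3. Between alpha and gamma cells a leading hormone of at least 80%, DESeq2, edgeR without pregnant 2 and scaling to all UMIs without pregnant 2 gave 1, cells with at least 500 UMIs gave 2, and leaving out 1 library 0 to 1. Between delta and gamma cells scaling to all UMIs without pregnant 2 gave 1, and leaving out 1 library 0 to 1.

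Directions changed in beta cells for differences that were not called. Chga in pregnant against non-pregnant cells (-0.30) became 0.11 in cells with at least 500 UMIs and 0.0036 with edgeR without pregnant 2, and ranged from -0.64 to 0.043 with 1 library left out. Chgb in postpartum against pregnant cells (-0.30) became 0.34 in cells with at least 500 UMIs, 0.55 with edgeR, 0.26 with DESeq2 and 0.41 with edgeR without pregnant 2, and ranged from -0.997 to 0.39 with 1 library left out. Scg2 in postpartum against pregnant cells (0.15) became -0.48 when scaled to all UMIs and -0.15 on that scale without pregnant 2, and ranged from -0.090 to 0.39 with 1 library left out. Ptprn2 in that comparison became -0.27 when scaled to all UMIs without pregnant 2.

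Whether the numbers 1 and 2 of the pregnant and postpartum libraries pair them is not known. Deviations of same-numbered libraries correlated at 0.0105 in beta and -0.0357 in alpha cells. The shallow pregnant 2 enters both values, so they cannot decide whether the libraries are paired. With a replicate block the Chga difference between postpartum and pregnant beta cells was 1.36 (limma, adjusted p = 4.26e-05), and 1 member in beta and 0 in alpha cells were called.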
